A study of Drosophila melanogaster with 8 samples.

Results

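Genes of protein folding, quality control and stress signalling in the endoplasmic reticulum (ER) were compared between Dahomey and Oregon R, a pair of laboratory strains of the fruit fly Drosophila melanogaster, in heads and thoraxes of females. The genes were chosen by name, as 32 genes of the translocon, glycosylation, chaperone, disulfide, degradation and stress-sensor machinery. The rule itself uses no measured value, but the genes were chosen with earlier results of these data known, so the choice was not blind to them. Of the 32, 30 were matched by symbol and gene identifier to a row of the 14701 gene IDs in the table. OstStt3 was matched through its current symbol, Stt3B. Pdi, the founding protein disulfide isomerase, and TER94, the ATPase that pulls proteins out of the ER membrane, were not matched to a row and were not analysed here.

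Proteins that are secreted or sit in membranes enter the ER through the Sec61 channel, receive glycans and disulfide bonds there, and fold with the help of lumenal chaperones. Proteins that fail to fold are sent back to the cytosol and degraded. When unfolded proteins build up, the sensors Ire1, PEK and Atf6 raise the folding capacity and slow translation, a programme called the unfolded protein response. In flies, fat body, gut, salivary gland and blood cells secrete heavily, and photoreceptors depend on the ER to mature rhodopsin.

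Dahomey and Oregon R each had 4 libraries of poly(A) RNA, and each library held heads and thoraxes of 60 mated females. All flies were 10 days old, had been kept at 25 °C on oatmeal-molasses food, and the labels name no treatment and no engineered allele. The values come from the authors' deposited table, a finished DESeq2 comparison with 1 row per entry. A row gives the mean normalized read count over the 8 libraries, the log2 fold change and the standard error (SE) of it, a p-value and an adjusted p. Its columns summarise the libraries, and values of single libraries were not analysed here. Errors are therefore the authors' SE, whether libraries of the strains overlap is unknown, and depth is known only as the 90000000 reads per sample that the submitters state. The headers leave the sign of the fold change open to reading: the table is named for Dahomey against Oregon R, so a positive value was taken to mean higher in Dahomey. In bulk RNA, a difference in the number of cells of a type and a difference in RNA per cell cannot be told apart.

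Most of these genes were higher in Dahomey, and none was called lower. Of the 30 matched genes, 24 were higher in Dahomey at an adjusted p under 0.05 in the authors' deposited table, 0 were lower and 6 did not pass. With an unadjusted p under 0.05, the same DESeq2 test counted 25 higher and 0 lower. Of all 13185 genes with a p-value, 29.6% passed in either direction, 14.8% with the higher level in Dahomey and 14.8% with the higher level in Oregon R. Among the 7355 genes with a mean count of at least 1000, 37.3% passed, with 19.1% higher in Dahomey and 18.2% in Oregon R; 29 of the 30 genes had such a mean, and 23 of those passed. The median log2 fold change of the 30 genes was 0.31, or 1.24-fold, beside -0.01 for all genes with a p-value. The differences themselves were of ordinary size: the genes that passed had a median of 0.35, and all genes of a mean of at least 1000 that passed had a median absolute log2 fold change of 0.33. At least 0.5 on the log2 scale was reached by 6 of them.

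**Figure D1:**
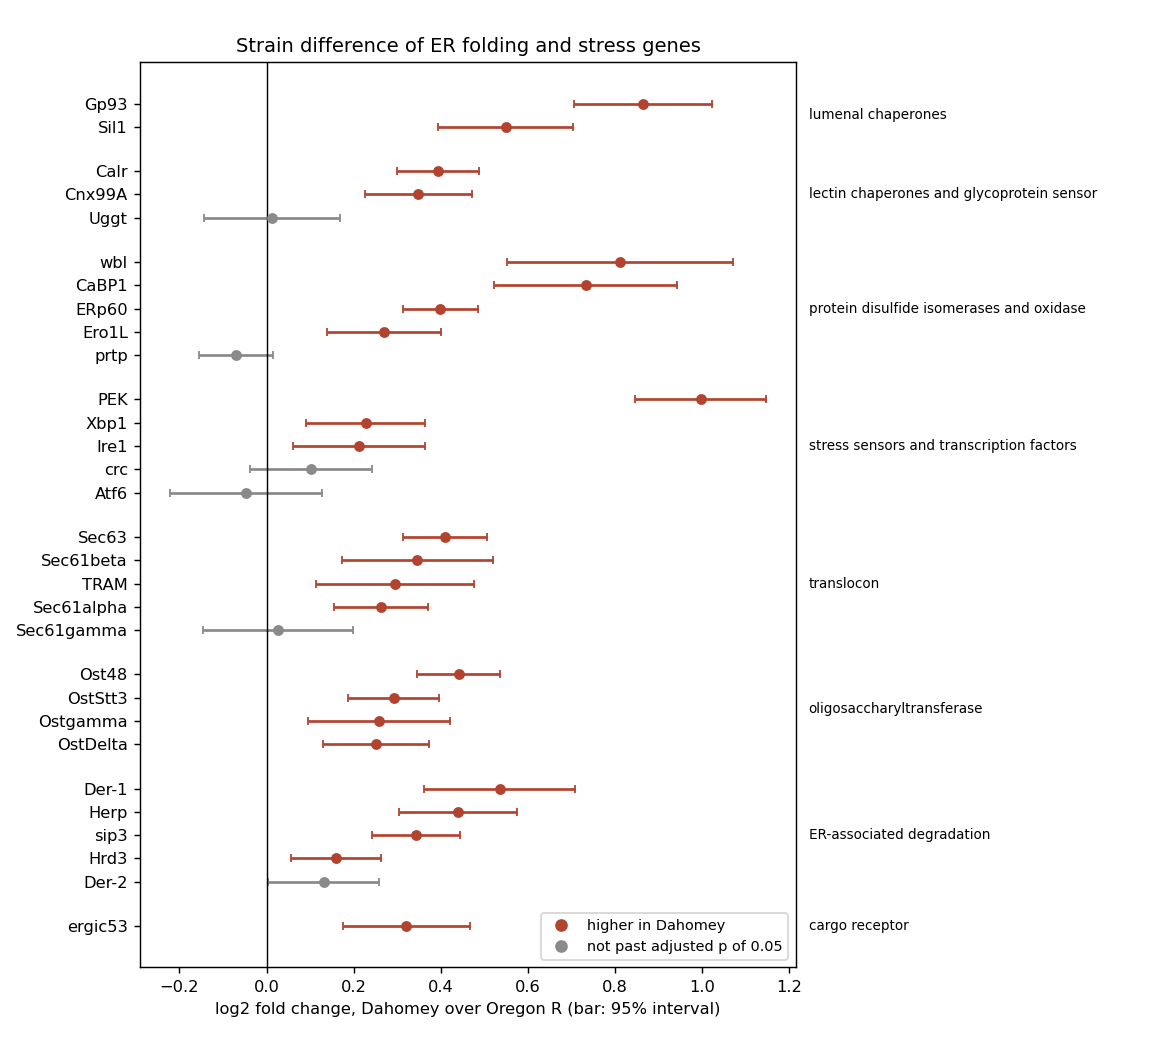
Each point is a gene's log2 fold change, Dahomey over Oregon R (horizontal axis), from the authors' deposited table, with its 95% interval; rows are genes grouped by role. The 24 genes in red passed an adjusted p of 0.05 and all lie right of 0, from Hrd3 at 0.16 to PEK at 1.00; the 6 in grey did not pass.

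The genes of a lumenal chaperone and of a co-chaperone of BiP, the ER Hsp70 protein, were both higher in Dahomey. Gp93 (FBgn0039562, arm 3R), the ER member of the Hsp90 family, had a log2 fold change of 0.86 ± 0.081 (SE) in the authors' deposited table, a 1.82-fold difference with a 95% interval from 1.63 to 2.03 and a DESeq2 adjusted p of 6.41e-25. Its mean count of 20246 and this fold correspond to about 26131 normalized reads in Dahomey and 14360 in Oregon R. Such strain levels were worked out from the mean and the fold change, giving both strains equal weight, and carry no error of their own. Sil1 (FBgn0039296, arm 3R), which exchanges the nucleotide on the ER Hsp70 chaperone, had 0.55 ± 0.079 in the authors' deposited table (adjusted p = 8.15e-11 by DESeq2), or about 1697 normalized reads in Dahomey and 1160 in Oregon R.

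The lectin chaperones, which hold newly glycosylated proteins while they fold, were both higher in Dahomey, whereas the enzyme that sends misfolded glycoproteins back to them did not pass. Calr (calreticulin, FBgn0005585, arm 3R), the soluble lectin chaperone, had a log2 fold change of 0.39 ± 0.048 in the authors' deposited table (adjusted p = 5.52e-15 by DESeq2). Cnx99A (calnexin, FBgn0015622, arm 3R), its membrane-bound relative, had 0.35 ± 0.063 there. Their folds were close, at 1.31 for Calr and 1.27 for Cnx99A. Uggt (FBgn0014075, arm 3L), the glucosyltransferase that marks unfolded glycoproteins for another round, had 0.01 ± 0.080 in the authors' deposited table (adjusted p = 0.94 by DESeq2). The 95% interval of Uggt ran from 0.905-fold to 1.12-fold, which leaves out folds as large as those of Calr and Cnx99A.

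The genes grouped with the disulfide isomerases and their oxidase spread widely, and whether each acts on disulfides was not tested. The 5 that were matched lay between -0.07 and 0.81 on the log2 scale, and 4 of the 5 were higher in Dahomey. wbl (windbeutel, FBgn0004003, arm 2R), an ERp29-type protein first known from the dorsal-ventral axis of the embryo, had 0.81 ± 0.13 in the authors' deposited table (adjusted p = 1.11e-08 by DESeq2). It was also the gene of the lowest mean count among the 30, at 359, or about 457 normalized reads in Dahomey and 261 in Oregon R. CaBP1 (FBgn0025678, arm 2L), a thioredoxin-domain isomerase, had 0.73 ± 0.11 in the authors' deposited table, a 1.66-fold difference (adjusted p = 1.5e-10 by DESeq2). ERp60 (FBgn0033663, arm 2R), the isomerase that works with the lectin chaperones, had 0.40 ± 0.044 there, which corresponds to about 29643 normalized reads in Dahomey and 22473 in Oregon R. That log2 fold change stood beside 0.39 for Calr. Ero1L (FBgn0261274, arm 3L), the oxidase that recharges the isomerases, had 0.27 ± 0.067 in the authors' deposited table. The exception was prtp (pretaporter, FBgn0030329, arm X), an ER thioredoxin-domain protein that can also reach the surface of dying cells as a signal for engulfment. It had -0.07 ± 0.043 in the authors' deposited table (adjusted p = 0.243 by DESeq2), with a 95% interval from 0.898-fold to 1.01-fold.

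The 3 stress sensors differed from one another in their values, and PEK had the highest fold change of the 30 genes. PEK (FBgn0037327, arm 3R), the fly PERK kinase, which slows translation by phosphorylating eIF2alpha, had a log2 fold change of 1.00 ± 0.076 in the authors' deposited table (adjusted p = 5.73e-37 by DESeq2). This is a 2.00-fold difference with a 95% interval from 1.80 to 2.21, or about 10972 normalized reads in Dahomey and 5498 in Oregon R, and it exceeded the fold changes of 97.4% of all genes with a p-value. Ire1 (FBgn0261984, arm 3R), the sensor that splices Xbp1 mRNA, had 0.21 ± 0.078 in the authors' deposited table (adjusted p = 0.0243 by DESeq2). Part of its exon sequence, 12.3%, overlaps MICU3 on the opposite strand, and MICU3 had -0.06 ± 0.081 there. Atf6 (FBgn0033010, arm 2R), the sensor that is cut from the membrane to become a transcription factor, had -0.05 ± 0.089 in the authors' deposited table (adjusted p = 0.782 by DESeq2). The intervals of PEK and Atf6 lay apart, at 0.85 to 1.15 for PEK and -0.22 to 0.13 for Atf6 on the log2 scale; the difference between genes was not tested.

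Of the transcription factors downstream, Xbp1 was higher in Dahomey and crc did not pass. Xbp1 (FBgn0021872, arm 2R), the factor switched on by Ire1, had a log2 fold change of 0.23 ± 0.069 in the authors' deposited table (adjusted p = 0.00514 by DESeq2), with about 44669 normalized reads in Dahomey and 38153 in Oregon R. Its row counts all Xbp1 reads together, so spliced and unspliced mRNA cannot be told apart. crc (cryptocephal, FBgn0000370, arm 2L), the fly ATF4, which acts downstream of PEK mostly through translation of its mRNA, had 0.10 ± 0.072 there, a 1.07-fold difference with a 95% interval from 0.974 to 1.18. In the BDGP6 annotation 73.5% of the exon sequence of crc is shared with CG46314 on the same strand, so the value of crc alone is uncertain.

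The translocon, through which new proteins enter the ER, was higher in Dahomey in 4 of 5 genes. Sec63 (FBgn0035771, arm 3L), which couples the channel to the ER Hsp70 chaperone, had 0.41 ± 0.049 in the authors' deposited table (adjusted p = 2.9e-15 by DESeq2). An antisense RNA gene overlaps 60.7% of its exon sequence, and the sources used here do not say whether the counting used strand. Sec61beta (FBgn0010638, arm 2R) had 0.35 ± 0.089 and Sec61alpha (FBgn0086357, arm 2L), the pore itself, had 0.26 ± 0.055 in the authors' deposited table. The third subunit of the channel, Sec61gamma (FBgn0031049, arm X), had 0.03 ± 0.088 there (adjusted p = 0.873 by DESeq2), with an interval from 0.905-fold to 1.15-fold that overlaps those of Sec61alpha and Sec61beta. TRAM (FBgn0040340, arm X), a membrane protein that sits beside the channel, had 0.30 ± 0.093 in the authors' deposited table (adjusted p = 0.0068 by DESeq2).

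The oligosaccharyltransferase is the complex that transfers the glycan to proteins entering the ER. Its 4 genes among the 32 were all higher in Dahomey and close to one another. Ost48 (FBgn0014868, arm X) had 0.44 ± 0.049, OstStt3 (FBgn0011336, arm 3R), the catalytic subunit, had 0.29 ± 0.053, Ostgamma (FBgn0032015, arm 2L) had 0.26 ± 0.083 and OstDelta (FBgn0034277, arm 2R) had 0.25 ± 0.062, all in the authors' deposited table. Their 95% intervals overlapped, and their adjusted p-values by DESeq2 ran from 4.05e-18 for Ost48 to 0.00847 for Ostgamma. Genes of the complex outside the 32 did not pass. Stt3A, the alternative catalytic subunit, had -0.15 ± 0.089 in the authors' deposited table (adjusted p = 0.232 by DESeq2). Dad1 had 0.14 ± 0.086 and kud 0.06 ± 0.072 there (adjusted p = 0.254 and 0.66 by DESeq2).

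Of the ER-associated degradation genes, 4 of 5 were higher in Dahomey. Der-1 (FBgn0267972, arm 2L), a derlin that forms part of the exit channel, had 0.54 ± 0.088, and Herp (FBgn0031950, arm 2L), a ubiquitin-like membrane protein that assembles the degradation complex, had 0.44 ± 0.069 in the authors' deposited table. The ubiquitin ligase sip3 (FBgn0039875, arm 3R), the fly Hrd1, had 0.34 ± 0.051 there, and its partner Hrd3 (FBgn0028475, arm 3R) had 0.16 ± 0.052 (adjusted p = 0.0104 by DESeq2). Hrd3 had the smallest fold among the genes that passed, at 1.12. The second derlin, Der-2 (FBgn0038438), also on arm 3R, showed 0.13 ± 0.065 in the authors' deposited table and did not pass, with an unadjusted p of 0.0444 and an adjusted p of 0.124 by DESeq2. The cargo receptor ergic53 (FBgn0035909, arm 3L) is a lectin that carries glycoproteins from the ER to the Golgi, and it had 0.32 ± 0.074 in the authors' deposited table, or about 10714 normalized reads in Dahomey and 8578 in Oregon R.

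Per length, the genes covered a wide range of levels. Counts were divided by the exon length in the BDGP6 annotation. crc was highest, at 32528 normalized reads per kb of exon as a mean over both strains, followed by Calr at 28340, Xbp1 at 19333 and ERp60 at 14420. These include chaperones of the folding cycle and the downstream transcription factors Xbp1 and crc. The level of crc is uncertain, because 73.5% of its exon sequence is shared with CG46314. At the low end, wbl had 272 normalized reads per kb, Sil1 had 780 and Uggt had 1242. The stress sensors were low and near one another on the mean over both strains, with Ire1 at 1827, Atf6 at 1768 and PEK at 1690 normalized reads per kb. By strain, PEK corresponded to about 2252 normalized reads per kb in Dahomey, against 1128 in Oregon R; Ire1 to 1961 in Dahomey and 1693 in Oregon R; and Atf6 to 1739 in Dahomey and 1797 in Oregon R. PEK was thus the highest of the sensors in Dahomey and the lowest in Oregon R, as levels without an error of their own. Within the Sec61 channel, Sec61beta had 13995, Sec61alpha 13014 and Sec61gamma 5940 normalized reads per kb over both strains. The 4 oligosaccharyltransferase genes lay between 3596 for OstDelta and 4714 for Ostgamma. Across the 30 genes, fold change and level per kb were nearly unrelated, with a Spearman rho of 0.03 and a Pearson r of -0.17 on the log2 level, as a description over genes measured in the same libraries.

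**Figure D2:**
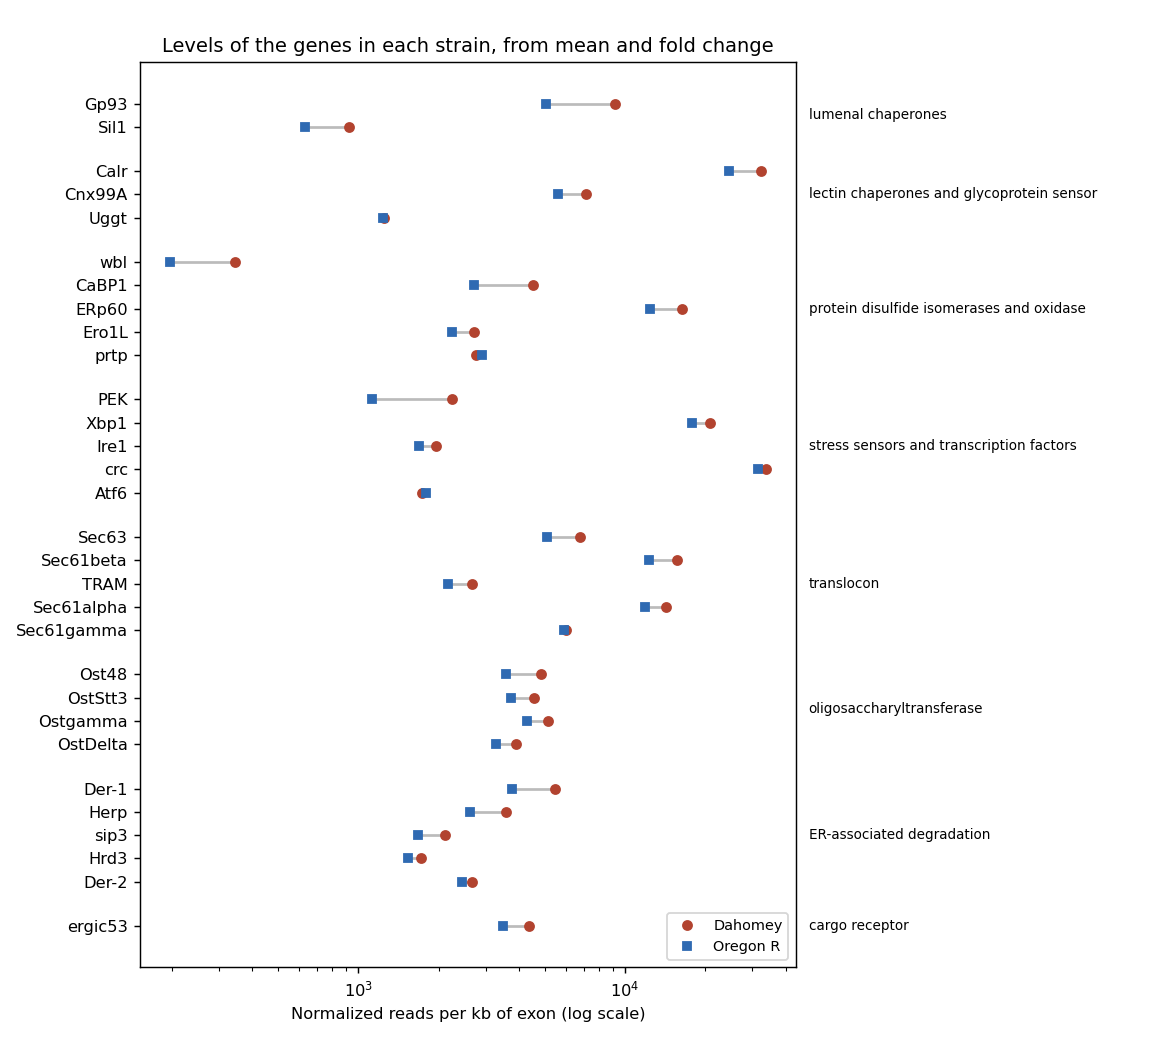
Level of each gene in Dahomey (circles) and Oregon R (squares), in normalized reads per kb of exon on a log axis, worked out from the deposited mean and fold change with no error of its own. Levels range from wbl, the lowest, to crc, the highest, and PEK, at about 2252 in Dahomey and 1128 in Oregon R, has the widest gap.

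**Figure D3:**
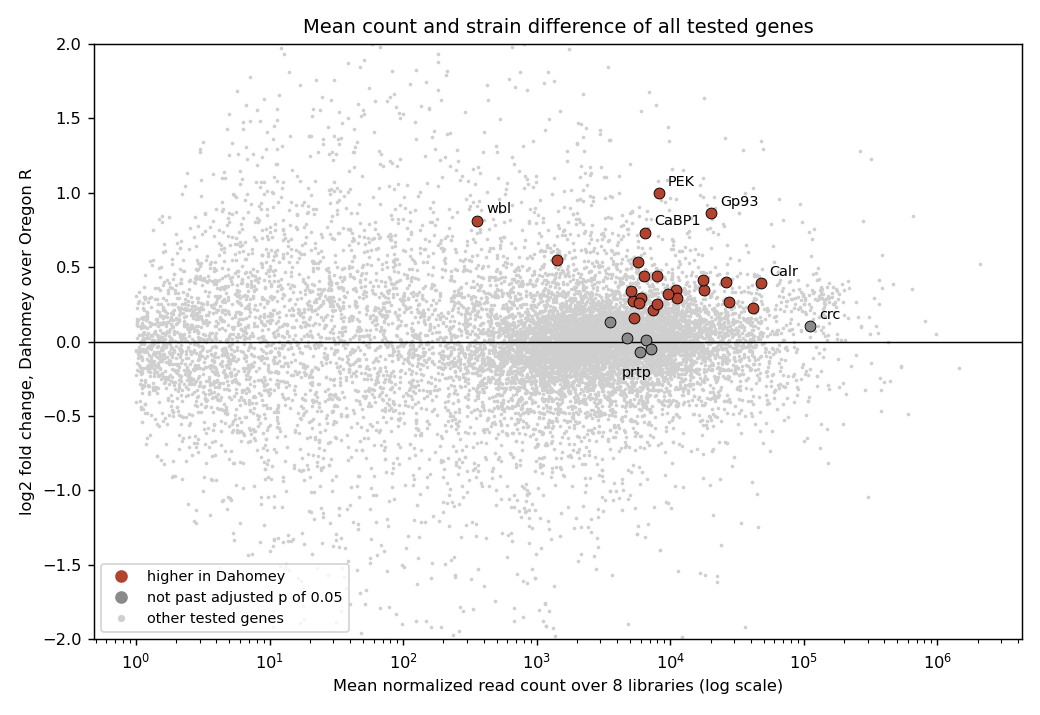
Mean normalized read count over 8 libraries (log axis) against the log2 fold change, Dahomey over Oregon R, for tested genes with a mean of at least 1; the vertical axis ends at 2 on either side of 0, and 150 genes lie beyond it. The genes of the ER list, large points, lie mostly above 0 among genes of similar mean, with 6 not past an adjusted p of 0.05 in grey.

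Related genes outside the 32 were counted in 8 lists of the same pathway. Of 136 such genes that were tested, 47 had the higher level in Dahomey and 13 had it in Oregon R at the authors' adjusted p under 0.05, with a median log2 fold change of 0.09. The share higher in Dahomey was between 42.9% and 55.6% in the chaperone, disulfide, translocation and transport lists, between 15.8% and 21.1% in the glycan, degradation and stress-response lists, and 0 in the list of 3 oligosaccharyltransferase genes; lists were not tested against each other. Of 13 genes of the BiP system and other lumenal chaperones, 6 were higher in Dahomey and 0 were lower. BiP is the main Hsp70 chaperone of the ER, encoded in flies by Hsc70-3. It had a log2 fold change of 1.03 ± 0.10 in the authors' deposited table, and its co-chaperones P58IPK and shv had 0.83 ± 0.061 and 0.71 ± 0.074. Beside Gp93 and Sil1, the chaperone's J-domain partners were thus also higher in Dahomey. The disulfide and redox list gave 4 higher and 0 lower of 9. Qsox2, a sulfhydryl oxidase, had 0.64 ± 0.12, the ER peroxiredoxin Prx4 had 0.39 ± 0.075 and ERp44, which retains proteins in the early secretory pathway, had 0.19 ± 0.058 in the authors' deposited table.

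Genes that bring proteins to the ER and clip or insert them gave 12 higher and 2 lower of 28. Srp68, of the signal recognition particle, had 0.49 ± 0.074, EMC2A, of the membrane insertion complex, had 0.36 ± 0.051 and Spase12, of the signal peptidase, had 0.32 ± 0.046 in the authors' deposited table. The other direction in the authors' deposited table was taken by EMC4 at -0.23 ± 0.079 and EMC2B at -0.16 ± 0.056, also of the insertion complex. Transport out of and back to the ER gave 15 higher and 2 lower of 27. The cargo receptor genes p24-2 and eca, neighbours within 3 genes on arm 3R and both of the p24 family, had 2.26 ± 0.076 and 1.16 ± 0.097 in the authors' deposited table. Reads of related genes such as these, or EMC2A and EMC2B, could be split between copies by the counting, so their single values are uncertain. Sec23, a coat protein of vesicles leaving the ER, had 0.27 ± 0.037, against -0.34 ± 0.094 for Mppe, a metallophosphoesterase gene, and -0.22 ± 0.066 for bai, another p24 gene, in the authors' deposited table.

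In the remaining lists the shares were near or below those of genes with a mean of at least 1000, 19.1% for Dahomey and 18.2% for Oregon R. Genes that build the glycan or trim it after transfer gave 4 higher and 3 lower of 19, or 21.1% and 15.8%. GCS2beta and GCS1, of glucosidases that remove the terminal glucoses, had 0.39 ± 0.077 and 0.17 ± 0.049, and the mannosidase gene alpha-Man-Ia had 0.37 ± 0.079 in the authors' deposited table. Lower in Dahomey in the authors' deposited table were Alg13 at -0.52 ± 0.12 and Alg11 at -0.41 ± 0.054, which build the glycan on its lipid carrier, and the mannosidase gene alpha-Man-Ib at -0.36 ± 0.067. Among 3 other oligosaccharyltransferase genes (Dad1, kud and Stt3A), 0 passed in either direction in the authors' DESeq2 test, and none had an unadjusted p under 0.05. Other degradation genes gave 3 higher and 2 lower of 18, or 16.7% and 11.1%. All of these were small: Edem2, a lectin that picks glycoproteins for degradation, had 0.17 ± 0.056, Ubqn 0.17 ± 0.063 and p47 0.14 ± 0.056, against -0.16 ± 0.059 for CG5823 and -0.10 ± 0.043 for the glycanase gene Pngl, in the authors' deposited table.

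Other genes of the unfolded protein and integrated stress responses gave 3 higher and 4 lower of 19, or 15.8% and 21.1%, again near the shares of genes with a mean of at least 1000. Gadd45, a stress-inducible gene, had 1.10 ± 0.074, trbl (tribbles), a pseudokinase gene, had 0.43 ± 0.065 and RtcB, the ligase that joins spliced Xbp1 mRNA in mammals, had 0.17 ± 0.063 in the authors' deposited table. In the other direction, Gcn2, the eIF2alpha kinase that senses amino acid shortage, had -0.35 ± 0.096 there, next to 1.00 for PEK, which phosphorylates the same protein. The stress-induced TOR inhibitor gene chrb (charybde) had -0.42 ± 0.062 and the cell death gene rpr (reaper) had -0.59 ± 0.18, from a mean count of 129, in the authors' deposited table. The remaining gene called lower, S1P, had -0.24 ± 0.084 there (adjusted p = 0.016 by DESeq2). PPP1R15, the phosphatase subunit that reverses the action of PEK, had -0.15 ± 0.063 in the authors' deposited table and did not pass, with an adjusted p of 0.058 by DESeq2. S1P and PPP1R15 were named after their values were seen.

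**Figure D4:**
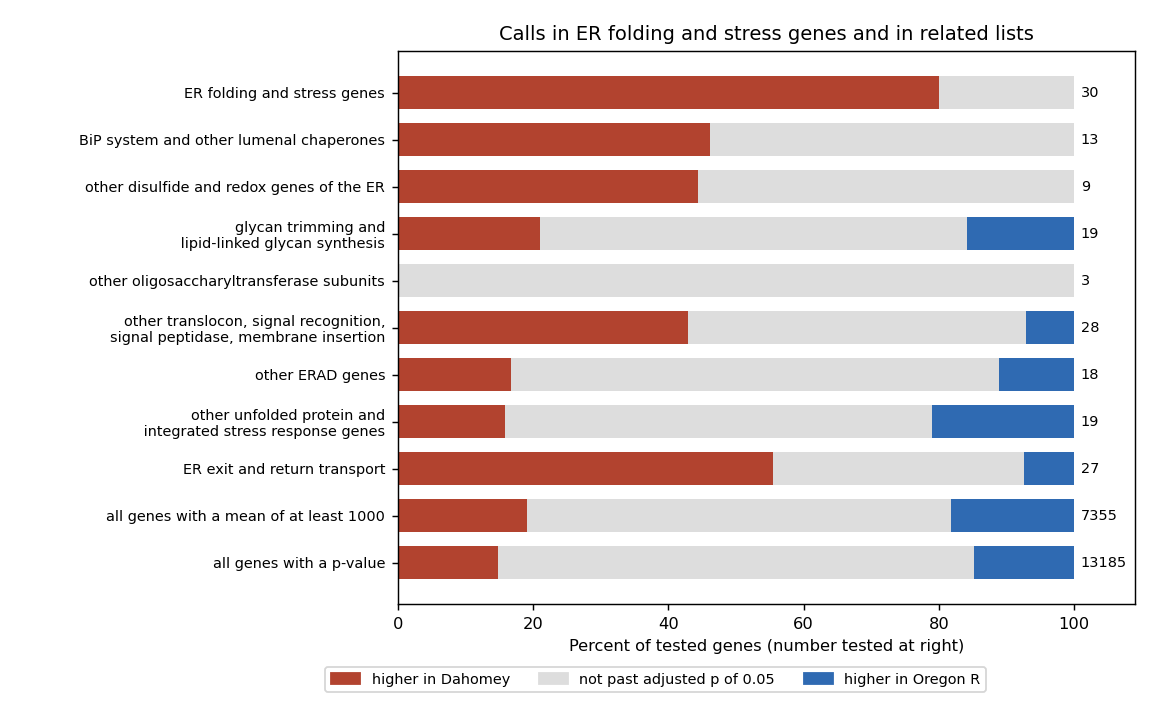
Percent of tested genes higher in Dahomey (left part of each bar), not past an adjusted p of 0.05 (middle) and higher in Oregon R (right part), for the ER folding and stress genes, 8 related lists and all genes; the number of tested genes stands at the right. Of the ER genes, 24 of 30 are higher in Dahomey and 0 in Oregon R, beside 14.8% and 14.8% of all genes with a p-value.

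Markers of cell types that could contribute ER-rich cells differed between the strains as well. Of 13 fat body genes listed, 9 had a p-value, and 5 of these were higher in Dahomey and 0 lower. Over all 13 fat body genes, levels summed to about 5675225 normalized reads in Dahomey and 4697869 in Oregon R, a ratio of 1.21. Most of that came from Yp1, Yp3 and Yp2, with mean counts of 2092636, 1475486 and 813667 out of 5186547. Over the 30 ER genes the sums were 494331 in Dahomey and 403450 in Oregon R, a ratio of 1.23. There crc, which did not pass, had a mean count of 111343 out of 448891. The ratio was 1.14 for flight muscle, 0.99 for salivary gland, 0.95 for blood cells, 0.89 for neurons and 0.67 for midgut. Of the fat body markers, FASN1, the fatty acid synthase gene, had 0.41 ± 0.10, and Fbp2, from a mean count of 46.2, had 1.60 ± 0.30 in the authors' deposited table. The markers did not all lie on one side: 5 of the 13 had a negative fold change there, Lsp2 at -1.91 ± 0.39, Lsd-1 at -0.33 ± 0.17 and Yp3 at -0.16 ± 0.15 with no p-value, and AkhR at -0.28 ± 0.13 and Col4a1 at -0.25 ± 0.11 that did not pass. The median log2 fold change was 0.39 over the 9 fat body genes with a p-value and 0.19 over all 13. Among 38 midgut genes, 17 had a p-value, with 5 higher and 7 lower in Dahomey, from betaTry at 0.81 ± 0.066 and epsilonTry at 1.37 ± 0.12 to LysC at -8.06 ± 0.13 and LysD at -7.74 ± 0.13 in the authors' deposited table, and the list summed to 1938233 normalized reads in Dahomey and 2891813 in Oregon R. The lysozyme and trypsin genes stand in clusters of near-identical copies, so single values there are uncertain. None of the midgut, fat body, blood cell, salivary gland, neuron or flight muscle markers was at 0, and their part in the result was not tested.

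Of 11 salivary gland markers, 0 were higher and 1 was lower in Dahomey, sage at -0.27 ± 0.091 in the authors' deposited table. The sums were 5512 normalized reads in Dahomey and 5554 in Oregon R. Of the summed mean count of 5533, fkh alone had 4224, and the Sgs and PH4alphaSG genes had means from 0.72 to 40.3. With most of its genes at such low counts, the list says little about the salivary gland. Blood cell markers had a negative fold change in 8 of 10 genes, with a median of -0.15; 2 passed as higher and 1 as lower in Dahomey, or 20.0% and 10.0%, with srp at 0.34 ± 0.10, He at 0.73 ± 0.29 and Pxn at -0.31 ± 0.086 in the authors' deposited table, and sums of 109262 in Dahomey and 114435 in Oregon R. Col4a1 was listed with both the fat body and the blood cell genes, so those 2 lists are not separate. Within the blood cell sum, Ppn, Col4a1 and vkg had mean counts of 38468, 18752 and 14186 out of 111849. As markers of the labelled tissue, neuron and flight muscle genes were present in the table at a level above 0. Neuron markers gave 0 higher and 4 lower of the 11 with a p-value, a share lower of 36.4%. ChAT had -0.95 ± 0.10 and Syn -0.50 ± 0.082 in the authors' deposited table. Of these 11, 7 had a negative and 4 a positive fold change, with a median of -0.05. The positive ones did not pass: elav at 0.06 ± 0.12, nSyb at 0.01 ± 0.073, brp at 0.15 ± 0.15 and Cadps at 0.09 ± 0.073. Over all 12 matched neuron genes, levels summed to 175460 normalized reads in Dahomey and 196227 in Oregon R. The genes listed for flight muscle gave 5 higher and 2 lower of the 11 with a p-value. Act79B had 0.53 ± 0.068 and up 0.26 ± 0.048, against -0.77 ± 0.10 for TpnC4 and -0.50 ± 0.083 for fln, in the authors' deposited table. Act88F had 1.25 ± 0.16 there with no p-value. Whether each gene marks flight muscle rather than other muscle was not tested. Over all 12 matched muscle genes the sums were 1267497 in Dahomey and 1114816 in Oregon R. Egg and ovary markers, which heads and thoraxes should lack, were present at a summed level of 28475 in Dahomey and 38287 in Oregon R, and 12 of 12 had no p-value. Of all rows, 916 had a fold change but no p-value, and the reason was not examined here. The fat body, midgut, neuron, flight muscle and egg sums include such genes. Whether a single library raised those sums is unknown, so they are not firm strain levels.

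**Figure D5:**
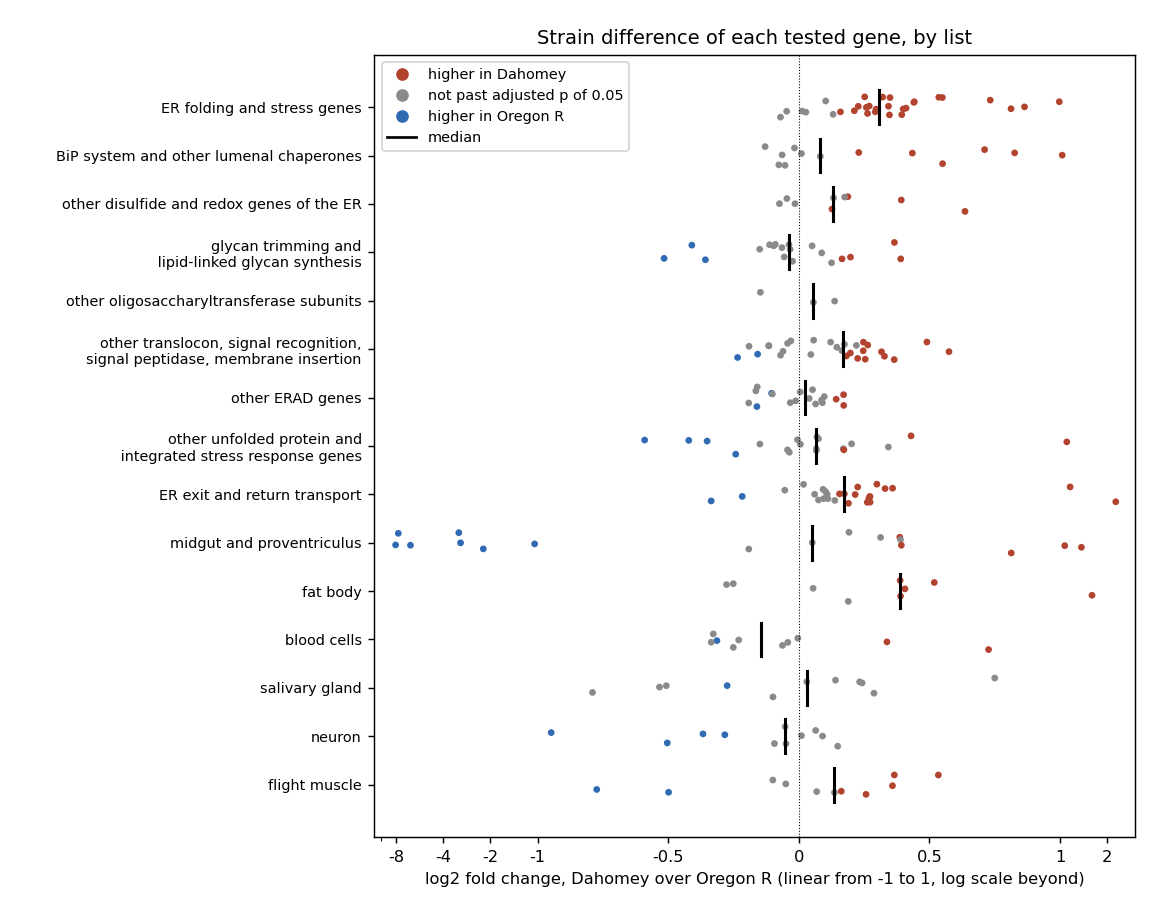
Log2 fold change, Dahomey over Oregon R, of each gene with a p-value (points, spread vertically at random for visibility), in the ER genes, 8 related lists and 6 cell type marker lists; the axis is linear from -1 to 1 and logarithmic beyond. The black line is the median, 0.31 for the ER folding and stress genes and 0.39 for the 9 fat body markers with a p-value (0.19 over all 13).

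The ER genes that were higher in Dahomey lay on every large chromosome arm. Of the genes on arm 3R 9 of 10 were higher, on 2L 5 of 6, on 2R 5 of 6, on 3L 3 of 4 and on X 2 of 4. Over all genes with a p-value on these arms, the share higher in Dahomey ran from 13.8% on 3R to 16.8% on 2L. On the small arm 4, which holds none of the 30, it was 10.7% of 84 genes. None of the 30 shared all its values with another row, as genes counted on the same reads do. Exons of 11 of the 30 overlap another annotated feature in the BDGP6 assembly, and apart from crc, Sec63, Ire1 and Atf6 the overlap was under 10% of the exon sequence with any single feature. Atf6 overlaps transposable element annotations, the longest over 19.8% of its exon sequence.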

How the data were processed

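Reads were made from poly(A) RNA with an Illumina TruSeq kit, and all RNA was prepared at the same time, per the labels' protocols. The submitters' processing notes name bcl2fastq, FastQC, TopHat2 2.0.7, DESeq2 and build BDGP5, with no role for each; the sources used here name no counting program and no strand setting. The deposited mean, per the file headers a base mean, is a signal in normalized read counts. The deposited log2 fold change and its SE are the authors' estimates and may be shrunken toward 0. The SE was small at very low counts, at 0.12 for tbrd-2 with a mean count of 0.24, against 0.42 for nab with 6.08. A fold change near 0 at such counts therefore says little. The deposited p-value equalled a 2-sided Wald p to within 4.05e-15, and Benjamini-Hochberg adjustment over all 13395 rows with a p-value matched the authors' adjusted p to within 0.000482.

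The members and lists were chosen with earlier results of these data known, so no test was run on a list. The highest mean was kept where an ID stood on several rows. IDs were matched through a table of gene IDs (14367 of 14701 had a symbol) and unique RefSeq synonyms, and genes already in the set of 32 were left out of the related lists. Intervals are 95% intervals from the SE under a normal distribution. Strain levels are 2 × mean × fold / (1 + fold) for Dahomey and 2 × mean / (1 + fold) for Oregon R. Exon lengths, gene order and overlaps come from an annotation of BDGP6, which is not the authors' build, so coordinates were left out. No protein or promoter sequences were used here. The labels do not say whether a strain's libraries are from separate cultures, and the p-values then measure only the spread between these samples, which may be technical. All 32 genes were named, with up to 3 higher and 3 lower genes per related list and up to 2 per marker list by smallest p. Stt3A, Dad1, kud, S1P, PPP1R15, Lsp2, Lsd-1, Yp3, AkhR and Col4a1 were named after their values were seen, as were the neighbouring and overlapping genes. The same holds for Yp1, Yp2, Amy-d, Amy-p, Ppn, vkg, fkh, the Sgs and PH4alphaSG genes, elav, nSyb, brp, Cadps and Act88F. The background of genes with a mean of at least 1000 was chosen after seeing the data. The adjustment and Wald code was tested on simulated data. Python 3.11.15, numpy 2.4.6, pandas 2.3.3, scipy 1.17.1 and matplotlib 3.10.9 were used.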

Additional observations from a re-analysis of the deposited data

How the results depend on the processing

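The count of 24 genes higher in Dahomey was 22 at an adjusted p under 0.01, 24 at 0.1, and 24 with Benjamini-Hochberg adjustment redone over 1 row per gene ID, with a mean of at least 10 or 100 required, with the lowest-mean row per ID, or with fold changes centred on the median of genes with a mean of at least 100 or, an alternative added after seeing the data, of at least 1000. It was 19 with an absolute log2 fold change of at least 0.26 required and 15 under Bonferroni adjustment, which Ero1L, Hrd3, Ire1, OstDelta, Ostgamma, Sec61beta, TRAM, Xbp1 and ergic53 did not pass. Ire1 and Hrd3 did not pass at 0.01. The count lower in Dahomey was 0 under all of these, and no gene of the 30 changed sign. Of the related genes, 47 higher became 21 under Bonferroni and 27 with the fold minimum; 13 lower became 8 at 0.01, 3 under Bonferroni and 7 with the fold minimum, all of which ask more of a gene. Centring moved the median by less than 0.01. No paired analysis was possible because the table holds no value per library; leaving out libraries and another normalization were not run for the same reason. Precision rests on the SE, 0.043 to 0.13 over the 30 genes.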

Other observations

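The nearest genes to the ER genes along the chromosome also differed between the strains in part. Of the 48 protein-coding genes with a p-value that lie directly beside an ER gene called higher in Dahomey, 14 had the higher level in Dahomey and 3 in Oregon R, which is 29.2% and 6.25%. Within 3 places to either side there were 144 such genes, with 20.1% higher in Dahomey and 11.1% in Oregon R, against 14.8% and 14.8% of all genes with a p-value and 19.1% and 18.2% of those with a mean of at least 1000. Beside the 6 ER genes that did not pass, 2 of 12 such genes had the higher level in Dahomey and 1 of 12 had it in Oregon R. Within 3 places of those 6, the shares were 11.1% for Dahomey and 13.9% for Oregon R. The neighbours were counted after the ER genes' values were known, and the difference was not tested.

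Single neighbours did not follow one pattern. Beside PEK, RpL35A, a ribosomal protein gene, had a log2 fold change of 0.22 ± 0.073 and CG12147 had 0.04 ± 0.28 in the authors' deposited table, from a mean count of 1.06. The value of RpL35A was below that of PEK itself, while CG12147 had too few reads for such a comparison. Beside Gp93, mfrn, a mitochondrial iron carrier gene, had 0.12 ± 0.044 and CG4951 had 0.04 ± 0.13, and one place further Nep7, a neprilysin-type peptidase gene, had 1.22 ± 0.12 in the authors' deposited table. CaBP1 lies between jhamt, an enzyme gene of juvenile hormone synthesis, at 1.11 ± 0.17 and CG4455 at -0.54 ± 0.12 in the authors' deposited table. Sec63 lies beside pst, a gene of resistance to viruses, at 0.82 ± 0.071, and ERp60 beside eEF1alpha1, the translation elongation factor gene, at 0.35 ± 0.052 in the authors' deposited table. Cnx99A had SP1029, a peptidase gene, at -0.59 ± 0.062 next to it in the authors' deposited table.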
